A study of Mus musculus with 6 samples.

Results

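The vascular endothelial growth factor (VEGF) and angiopoietin systems are the 2 main receptor tyrosine kinase systems of blood vessels, and 10 of their genes were read from a count table of 37620 genes. They comprised 5 ligands (Vegfb, Pgf, Vegfc, Angpt1 and Angpt2) and 5 receptors (Flt1, Kdr, Flt4, Tek and Tie1). The genes were given by symbol, and all 10 were found in the table and passed the filter on low counts that left 14738 genes. Libraries came from the apex of hearts of wild-type C57/BL6J mice, taken after 30 min of myocardial ischaemia and 120 min of reperfusion. All 6 samples had thus been through ischaemia and reperfusion, and the series used here holds no unoperated heart. In the vehicle group (3 samples) the vehicle of yohimbine, an alpha-2 adrenergic antagonist, and the vehicle of dexmedetomidine were given before surgery. In the dexmedetomidine group (3 samples) the vehicle of yohimbine came 30 min before dexmedetomidine, an alpha-2 agonist used as a sedative, at 10 µg/kg, and surgery followed 20 min after the drug. Each infusion went into the tail vein within 10 min. The labels do not say that the samples came from separate animals, and give neither age nor sex, so a p-value reflects sample-to-sample spread, which may in part be technical.

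In the VEGF system, soluble ligands bind 3 receptors on endothelial cells. KDR carries most of the growth and permeability signal, FLT1 binds its ligands tightly and also exists as a soluble decoy, and FLT4 is the receptor of lymphatic endothelium and of some blood vessels. VEGFB and PGF bind FLT1, and VEGFC binds FLT4 and, once processed, KDR. ANGPT1, made by mural and other supporting cells, activates TEK (also called TIE2) and steadies vessels, while ANGPT2, released by endothelial cells, often opposes it, and TIE1 is an orphan partner of TEK. In the heart, Vegfb is strongly expressed by cardiomyocytes. The comparison asks whether the transcripts of these ligands and receptors differ in the reperfused apex when dexmedetomidine was given first.

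None of the 10 genes passed an adjusted p of 0.05 in edgeR's quasi-likelihood test, and neither did any of the other genes (0% of 14738); DESeq2 called 1 of the 10 and 8.63% of all genes, and limma-voom 2 and 14%. At an unadjusted p under 0.05, 3 of 10 were lower after dexmedetomidine (Pgf, Vegfb and Flt4), where 9.03% of all tested genes were lower by that rule, and 0 of 10 were higher, where 12.5% were. The same 3 were the only members whose groups did not overlap, all with the dexmedetomidine libraries below the vehicle libraries (12% of all tested genes did so, and 15.6% were separate in the other direction). The other endothelial receptors, Flt1, Kdr, Tek and Tie1, had overlapping groups. The angiopoietin ligand Angpt1 had the largest difference of the 10, 1.89-fold higher on average after dexmedetomidine, with an interval that included no change. Over the 10 genes the median log2 fold change (dexmedetomidine minus vehicle) was -0.11, beside 0.00321 over all tested genes, with 5 genes above 0 and 5 below (49.7% of all tested genes were below 0).

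The 6 libraries held 42.7 to 56.6 M counts assigned to genes. The whole table carried a trend with base composition: when genes were sorted into 5 bins of equal size by the GC content of their longest transcript, the median log2 fold change went from 0.47 in the bin of lowest GC content to -0.30 in the highest. Transcripts of the mitochondrial genome took 22.01% to 25.2% of gene counts in the vehicle libraries and 27.1% to 38.2% in the dexmedetomidine libraries. Vehicle replicate 2 stood apart in immediate early genes, with Fos at 608 CPM (gene counts as a rate per M counts of the library, TMM scaled) against 21.8 to 60.2 CPM in the other 5 libraries. Log2 fold changes of the 10 genes and of the other pathway and endothelial genes named are also given with a correction of each library for GC content and length (the corrected value) and without vehicle replicate 2. Values for single libraries are listed in the order of replicates 1, 2 and 3.

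Per length, the ligand Vegfb was by far the most abundant of the 10, and the other ligands Angpt2, Vegfc and Angpt1 were the least. In TPM (counts divided by gene length, scaled to 1 fixed sum per library), Vegfb had a mean of 369 ± 98.9 (SD over the 6 libraries), followed by Tie1 at 71.5 ± 16.5, Flt1 at 52.6 ± 6.47, Kdr at 50.7 ± 7.71, Pgf at 38.8 ± 17.3 and Tek at 24.8 ± 3.60. Flt4 had 9.52 ± 2.28 TPM, and Angpt2, Vegfc and Angpt1 had 5.90 ± 1.42, 5.33 ± 1.07 and 5.25 ± 2.67 TPM. The lowest Vegfb library, at 238 TPM, lay above the highest of Tie1, at 87.9 TPM, and the lowest Tek library, at 20.9 TPM, above the highest of Flt4, at 12.7 TPM. All other neighbours in this order had overlapping ranges, so their order was not separated by the spread between libraries. Gene models ran to 1605 bases for Vegfb and 11583 for Flt1, so CPM is compared below only within a gene. TPM is scaled to a fixed sum that includes the mitochondrial transcripts and has no TMM scaling. Tests of single genes between the groups therefore used the TMM scaling of CPM, whose totals also include mitochondrial transcripts. In TPM, Flt1 (51.3 to 64.1 with vehicle, 47.2 to 49.7 with dexmedetomidine) and Vegfc (5.88 to 6.64 and 4.05 to 5.16) had separate groups. Their groups overlapped in CPM.

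**Figure D1:**
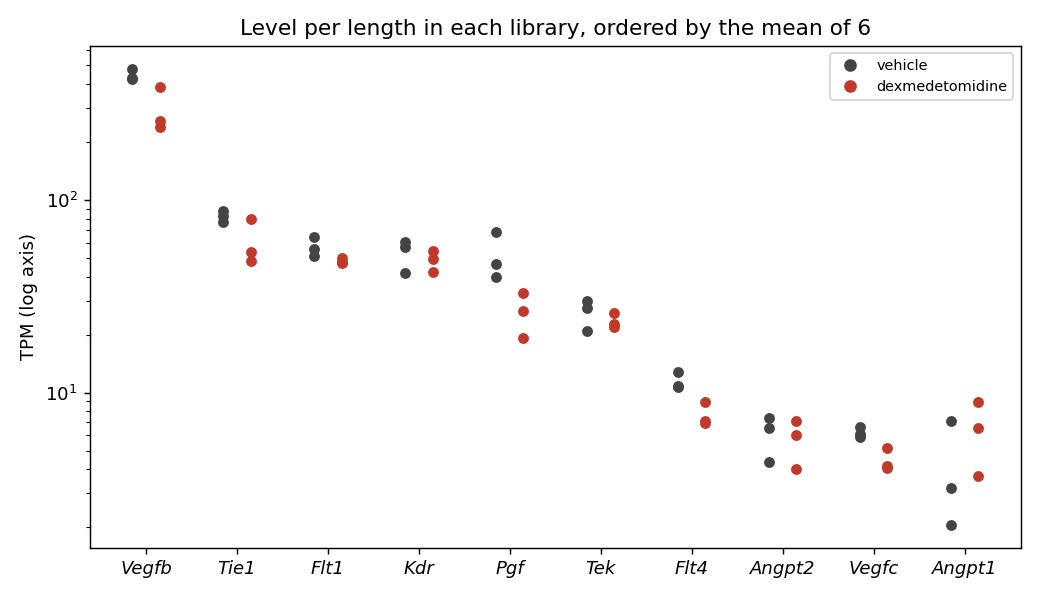
Level of each gene in TPM (log axis) in the 3 vehicle and 3 dexmedetomidine libraries, 1 point per library, ordered by the mean of all 6. TPM has no TMM scaling, so the figure compares genes, and differences between groups are read from CPM. Vegfb, between 238 and 480 TPM, stands above every other gene, and Angpt2, Vegfc and Angpt1 lie at the bottom with overlapping ranges.

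Among the ligands, Pgf (ENSMUSG00000004791), placental growth factor, had the smallest p of the 10. It measured 34.0, 51.6 and 26.2 CPM with vehicle and 23.9, 24.0 and 17.6 CPM with dexmedetomidine. Each dexmedetomidine library was below each vehicle library, and vehicle replicate 2 was the highest of all. The group means were 37.3 ± 13.0 and 21.9 ± 3.69 CPM (SD, n = 3 each), a log2 fold change of -0.77 (SE 0.24, edgeR unadjusted p = 0.0118, adjusted p = 0.131). The 95% interval reached from 0.400 to 0.860 times the vehicle level. Other tools put it past the threshold, DESeq2 with an adjusted p of 0.0274 and limma-voom with quality weights with 0.0358, where they called 8.63% and 14% of all tested genes. Without vehicle replicate 2 the log2 fold change was -0.46, and with the GC and length correction it was also -0.46 (SE 0.20, edgeR adjusted p = 0.387), with overlapping groups.

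Vegfb (ENSMUSG00000024962), whose protein binds FLT1 and is linked to fatty acid handling and vessel survival in heart muscle, measured 317, 369 and 287 CPM with vehicle. With dexmedetomidine it had 285, 236 and 223 CPM. The groups were separate by a narrow margin, with vehicle replicate 3 at 286.9 CPM just above dexmedetomidine replicate 1 at 285.5 CPM. The means were 324 ± 41.4 and 248 ± 33.2 CPM (SD, n = 3 each), a log2 fold change of -0.39 (SE 0.14, edgeR adjusted p = 0.167, and 0.0328 in limma-voom). Its transcript has a GC content of 62.6%, the highest of the 10. With the GC and length correction its log2 fold change turned to 0.09 (SE 0.12, edgeR adjusted p = 0.811) and the groups overlapped. Without vehicle replicate 2 it was -0.28.

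Vegfc (ENSMUSG00000031520), the lymphangiogenic ligand of FLT4, had the fewest counts of the 10. It measured 5.19, 5.56 and 5.26 CPM with vehicle and 3.54, 5.59 and 4.57 CPM with dexmedetomidine, from 178 to 304 counts a library. The highest and the lowest library both came from the dexmedetomidine group, and the groups overlapped. The log2 fold change was -0.23 (SE 0.22, edgeR adjusted p = 0.598), and -0.20 without vehicle replicate 2. After the GC and length correction Vegfc was the only member with separate groups, at 2.46, 2.67 and 2.46 corrected log2 CPM after vehicle and 1.77, 2.39 and 2.06 after dexmedetomidine. Its corrected log2 fold change was -0.44 (SE 0.22, edgeR adjusted p = 0.440), and the share of all tested genes with separate, lower groups after that correction was 9.66%.

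Over the 6 libraries, log2 CPM of Kdr and Tek had a Pearson r of 0.94, and Pgf and Angpt1 were the most opposed pair (r = -0.95), which describes 6 libraries that also share depth and the trend with GC content. RefSeq promoters are shown for Vegfb, Pgf and Flt4, the genes with separate groups, and for Kdr and Tek, receptors with overlapping groups. The windows are the 250 bases before the start site on GRCm38.p6, and capitals mark the GC box GGGCGG or its reverse complement CCGCCC, where adjacent boxes run together. The windows lie at chr19:6987652-6987901, strand - for Vegfb, chr12:85177314-85177563, strand - for Pgf (the first of 2 listed starts), chr11:49609429-49609678, strand + for Flt4, chr5:75978456-75978705, strand - for Kdr and chr4:94739039-94739288, strand + for Tek.
Vegfb: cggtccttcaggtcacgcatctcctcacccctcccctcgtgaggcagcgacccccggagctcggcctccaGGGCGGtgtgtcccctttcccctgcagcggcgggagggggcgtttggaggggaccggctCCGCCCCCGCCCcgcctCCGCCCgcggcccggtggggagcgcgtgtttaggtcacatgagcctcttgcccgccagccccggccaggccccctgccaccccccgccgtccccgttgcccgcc
Pgf: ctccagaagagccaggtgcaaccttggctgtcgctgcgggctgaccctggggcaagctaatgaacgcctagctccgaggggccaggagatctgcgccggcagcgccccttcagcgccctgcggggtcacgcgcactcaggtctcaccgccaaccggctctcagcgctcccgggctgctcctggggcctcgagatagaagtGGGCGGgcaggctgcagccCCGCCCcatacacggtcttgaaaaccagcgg
Flt4: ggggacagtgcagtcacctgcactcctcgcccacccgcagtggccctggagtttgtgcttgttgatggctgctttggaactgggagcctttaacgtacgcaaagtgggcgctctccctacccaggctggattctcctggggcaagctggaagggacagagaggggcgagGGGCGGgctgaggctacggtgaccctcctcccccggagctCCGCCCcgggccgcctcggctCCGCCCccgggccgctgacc
Kdr: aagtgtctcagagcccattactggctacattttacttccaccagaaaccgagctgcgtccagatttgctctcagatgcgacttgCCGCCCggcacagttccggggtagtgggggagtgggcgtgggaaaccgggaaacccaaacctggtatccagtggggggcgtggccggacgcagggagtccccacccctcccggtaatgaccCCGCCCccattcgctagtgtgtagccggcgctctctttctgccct
Tek: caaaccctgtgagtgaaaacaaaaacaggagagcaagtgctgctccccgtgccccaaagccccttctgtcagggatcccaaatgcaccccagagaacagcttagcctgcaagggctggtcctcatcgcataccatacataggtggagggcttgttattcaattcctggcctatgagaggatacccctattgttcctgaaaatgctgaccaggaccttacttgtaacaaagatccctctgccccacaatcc

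The window of Vegfb held 4 GC boxes on both strands together, and those of Flt4 and Flt1 held 3 each. Those of Pgf, Kdr and Vegfc held 2 each, and those of Tek and Tie1 held 0. Flt1 and Vegfc, like Kdr, Tek and Tie1, had overlapping groups in CPM. Of 32841 promoter windows of the same length, 32.7% held at least 1. GC content of the windows was 76.4% for Vegfb, 71.6% for Vegfc, 70.4% for Flt1 and 68.4% for Pgf and Flt4. It was 61.6% for Kdr, 60.4% for Tie1 and 51.2% for Tek, against a median of 52.4% over all windows. The ETS core GGAA, which is bound by transcription factors that act in endothelial cells among others, occurred at 7 places in the Tie1 window, at 4 in those of Flt1 and Kdr at 2 in those of Flt4 and Tek, at 1 in those of Vegfb and Vegfc and at 0 in that of Pgf. The median over all windows was 3, and 93.5% held at least 1. The hypoxia response element core ACGTG was in none of the windows of the 8 genes with an entry (16.6% of all windows). These matches describe letters in the window and nothing more.

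Among the VEGF receptors, Flt4 (ENSMUSG00000020357) was lower in each dexmedetomidine library than in any vehicle library, while Flt1 and Kdr were close to level. Flt4 measured 41.3, 50.2 and 36.6 CPM with vehicle and 33.8, 32.5 and 34.3 CPM with dexmedetomidine. The dexmedetomidine libraries lay close together, and all were below the lowest vehicle library. The means were 42.7 ± 6.89 and 33.5 ± 0.904 CPM (SD, n = 3 each), a log2 fold change of -0.35 (SE 0.14, edgeR adjusted p = 0.187). It was at -0.22 without vehicle replicate 2 and at -0.21 (SE 0.15, edgeR adjusted p = 0.604) with the GC and length correction, with overlapping groups.

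Flt1 (ENSMUSG00000029648), the receptor of VEGFB and PGF, measured 301, 284 and 309.9 CPM with vehicle and 265, 314 and 319 CPM with dexmedetomidine. The lowest and the highest library were both dexmedetomidine libraries. The log2 fold change was 0.00348 (SE 0.12, edgeR adjusted p = 0.990), and its 95% interval allowed from 0.831 to 1.21 times the vehicle level. It was -0.10 with the correction and -0.031 without vehicle replicate 2. Counts per gene do not separate the membrane-bound from the soluble form of Flt1. While its ligands Pgf and Vegfb had every dexmedetomidine library below the vehicle libraries, the transcript of this receptor had an interval around no change.

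Kdr (ENSMUSG00000062960), the main signalling receptor, measured 192, 145 and 183 CPM with vehicle. With dexmedetomidine it had 182, 205 and 178 CPM. Vehicle replicate 2 was the lowest of the 6, and the groups overlapped. The log2 fold change was 0.12 (SE 0.14, edgeR adjusted p = 0.662, 95% interval 0.876 to 1.35 times the vehicle level), and without vehicle replicate 2 it was 0.00467. The corrected value was 0.049.

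The ratio of Flt1 to Kdr, 2 receptors that share ligands, does not depend on the scaling of a library. Per length it stood at 0.983, 1.23 and 1.06 with vehicle and at 0.917, 0.961 and 1.12 with dexmedetomidine. The groups overlapped, with a log2 difference of -0.13 (exact two-sided permutation p = 0.4, n = 3 each). With 3 libraries against 3, no such test can give a p below 0.1. This was 1 of 3 ratios tested, each with an adjusted p of 0.4 over the 3.

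**Figure D2:**
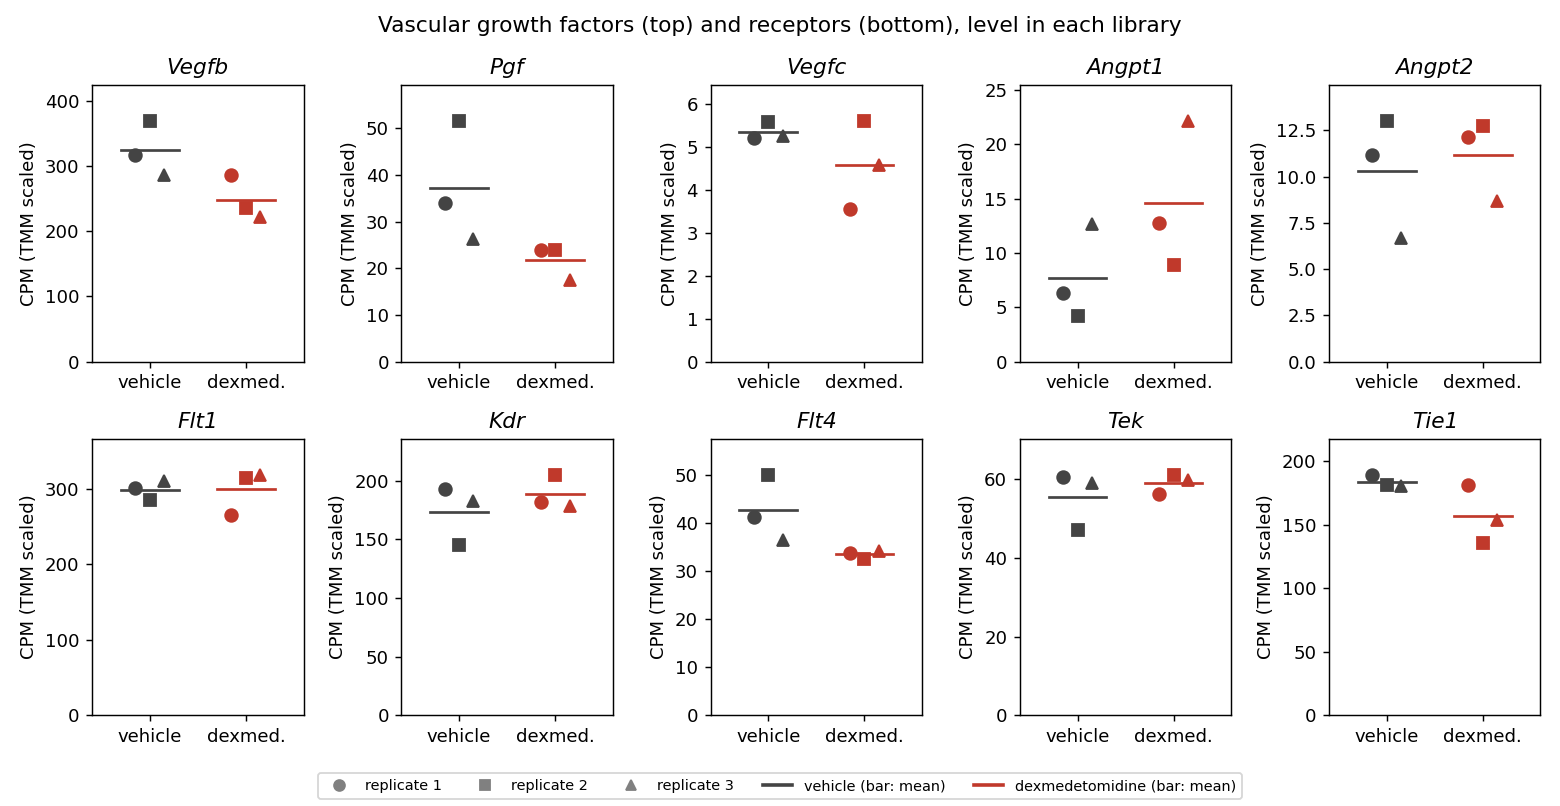
Level of each of the 10 genes in CPM (linear axes from 0) in every library, with ligands in the top row and receptors below, symbols for replicates and bars for group means. Pgf, Vegfb and Flt4 have every dexmedetomidine library below every vehicle library, while Flt1, Kdr, Tek and Angpt2 overlap.

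Of the angiopoietins, Angpt1 spread widely between libraries and Angpt2 was near level between groups. Angpt1 (ENSMUSG00000022309), the vessel-stabilising agonist of TEK, measured 6.30, 4.19 and 12.7 CPM with vehicle and 12.8, 8.93 and 22.1 CPM with dexmedetomidine. Vehicle replicate 3 lay within the dexmedetomidine range, and replicate 3 was the highest library of each group. The means were 7.72 ± 4.42 and 14.6 ± 6.80 CPM (SD, n = 3 each), a log2 fold change of 0.92 (SE 0.45, edgeR unadjusted p = 0.0727, adjusted p = 0.275), with a 95% interval from 0.929 to 3.84 times the vehicle level. Single libraries moved it both ways: it was 0.49 (edgeR adjusted p = 0.697) without dexmedetomidine replicate 3, 0.62 (0.513) without vehicle replicate 2 and 1.47 (0.0410, in a fit that called 8.31% of genes) without vehicle replicate 3. Angpt1 has a GC content of 39.3%, the lowest of the 10, and with the GC and length correction its log2 fold change was 0.24 (SE 0.31, edgeR adjusted p = 0.796). The antisense gene Gm17473 overlaps Angpt1 in GENCODE M21. The strand setting of the counting was not found, so whether reads of the 2 were told apart is not known.

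Angpt2 (ENSMUSG00000031465), the context-dependent antagonist released by endothelial cells, measured 11.2, 13.0 and 6.67 CPM with vehicle and 12.1, 12.7 and 8.66 CPM with dexmedetomidine. Replicate 3 was the lowest library of each group, the reverse of Angpt1, and the groups overlapped. The log2 fold change was 0.12 (SE 0.26, edgeR adjusted p = 0.825), and it was -0.11 without vehicle replicate 3, 0.32 without vehicle replicate 2 and 0.019 with the correction. The gene lies within Mcph1 on the other strand in GENCODE M21, so its counts may include reads of that gene if counting ignored strand.

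The ratio of Angpt2 to Angpt1, which is often read as a balance between loosening and steadying of vessels, stood at 2.05, 3.58 and 0.607 per length with vehicle. With dexmedetomidine it stood at 1.10, 1.64 and 0.451. The ratio ranged 5.89-fold among vehicle libraries, and the groups overlapped. The mean log2 difference was -0.82 (exact two-sided permutation p = 0.4, n = 3 each). It was -0.26 without vehicle replicate 2, -0.29 without dexmedetomidine replicate 3, -1.54 without vehicle replicate 3 and -0.19 with the GC and length correction.

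**Figure D3:**
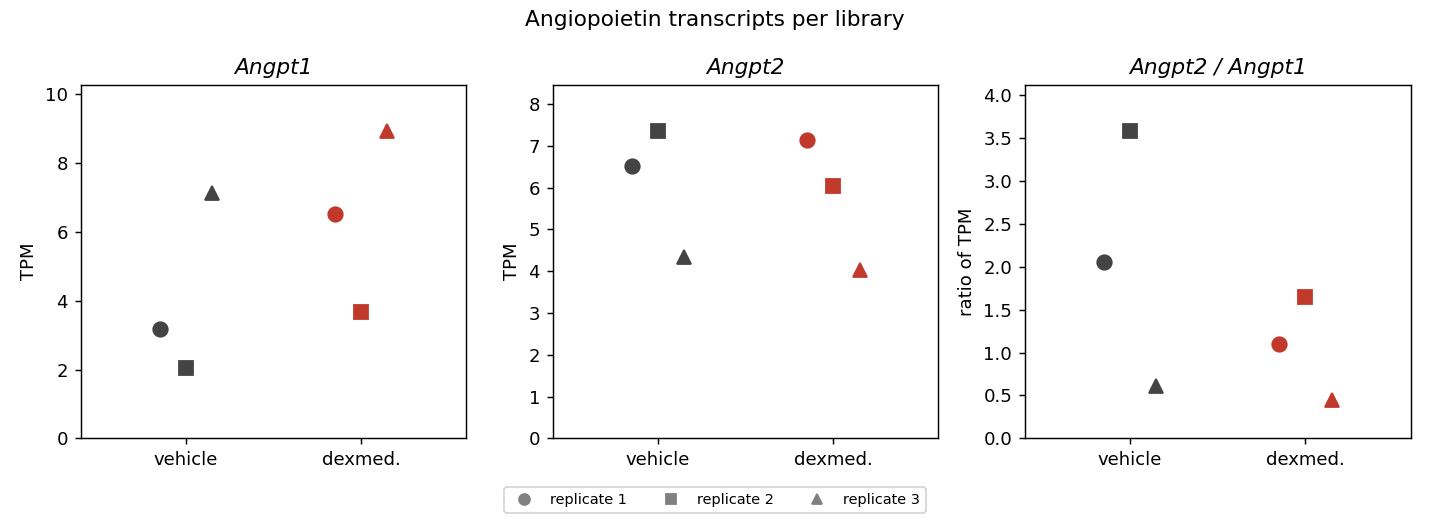
Angpt1 and Angpt2 in TPM and their ratio in each library (linear axes from 0), with symbols for replicates. In both groups replicate 3 has the highest Angpt1 and the lowest ratio, at 0.607 after vehicle and 0.451 after dexmedetomidine.

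The receptors of the angiopoietin system had smaller fold changes than Angpt1, with overlapping groups. Tek (ENSMUSG00000006386) measured 60.5, 47.1 and 58.9 CPM with vehicle and 56.1, 61.1 and 59.8 CPM with dexmedetomidine. Vehicle replicate 2 was the lowest library, as it was for Kdr. The log2 fold change was 0.09 (SE 0.13, edgeR adjusted p = 0.734), with a 95% interval from 0.871 to 1.30 times the vehicle level, and it was -0.024 with the GC and length correction and -0.018 without vehicle replicate 2.

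Tie1 (ENSMUSG00000033191), the partner of TEK, measured 189, 181 and 181 CPM with vehicle and 181, 135 and 153 CPM with dexmedetomidine. The vehicle libraries were tightly grouped, and dexmedetomidine replicate 1 lay among them. The means were 184 ± 4.89 and 157 ± 23.0 CPM (SD, n = 3 each), a log2 fold change of -0.23 (SE 0.13, edgeR adjusted p = 0.348). With the GC and length correction, for a GC content of 57.6%, it was 0.01, and without vehicle replicate 2 it was -0.24. The ratio of Tie1 to Tek per length stood at 3.00, 3.68 and 2.94 with vehicle and at 3.09, 2.12 and 2.46 with dexmedetomidine, overlapping between groups (log2 difference -0.34, exact two-sided permutation p = 0.3, n = 3 each, 0.03 with the correction).

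The 10 genes can be set beside genes of like composition. Vegfb, Pgf, Flt4 and Tie1 were in the bin of highest GC content, with a median log2 fold change of -0.30, and stood at -0.39, -0.77, -0.35 and -0.23. Angpt1 was in the lowest bin, with a median of 0.47, and stood at 0.92. Vegfc was on the other side of 0 from its bin, at -0.23 beside a median of 0.15, as were Kdr, at 0.12 beside -0.012, and Flt1, at 0.0035 beside the same -0.012. With the correction, 1 of 10 genes (Pgf, lower) had an unadjusted p under 0.05, beside 7.65% of all tested genes that were lower by that rule, and 0 of 10 had an adjusted p under 0.05 (0% of all tested genes).

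**Figure D4:**
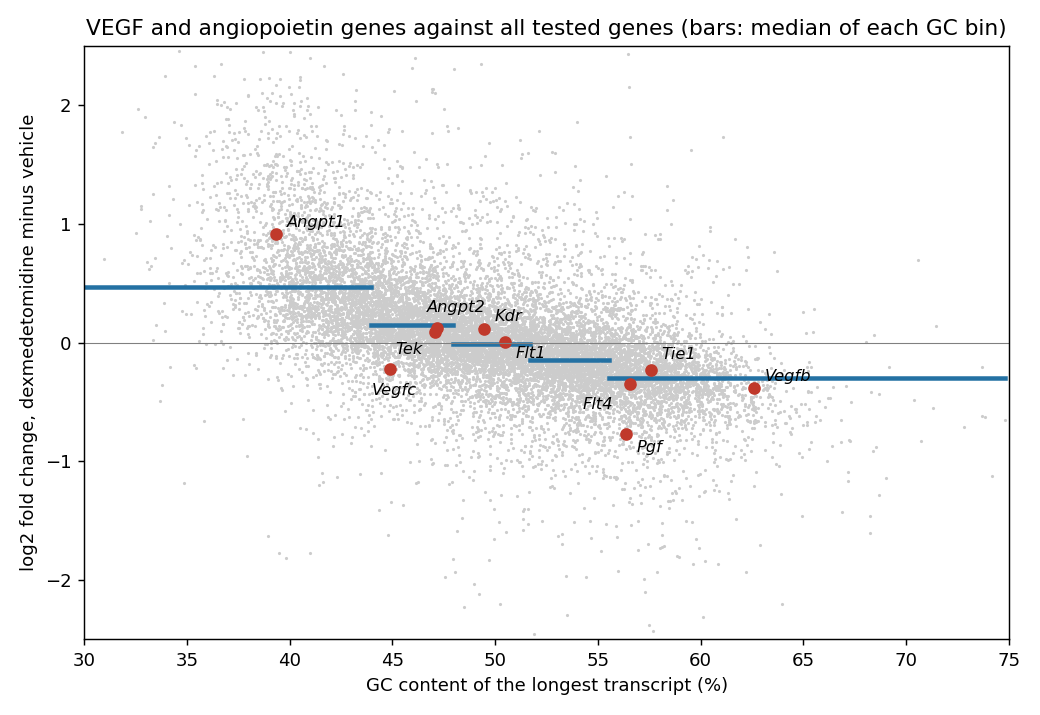
Log2 fold change (dexmedetomidine minus vehicle) against GC content of the longest transcript for all tested genes (grey, both axes cropped at the outermost genes), with the median of each of 5 GC bins (blue bars) and the 10 genes (red). Angpt1, in the lowest bin, and Vegfb, Flt4 and Tie1, in the highest, lie on the side of 0 of their bin's median, and Vegfc, Kdr and Flt1 do not.

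**Figure D5:**
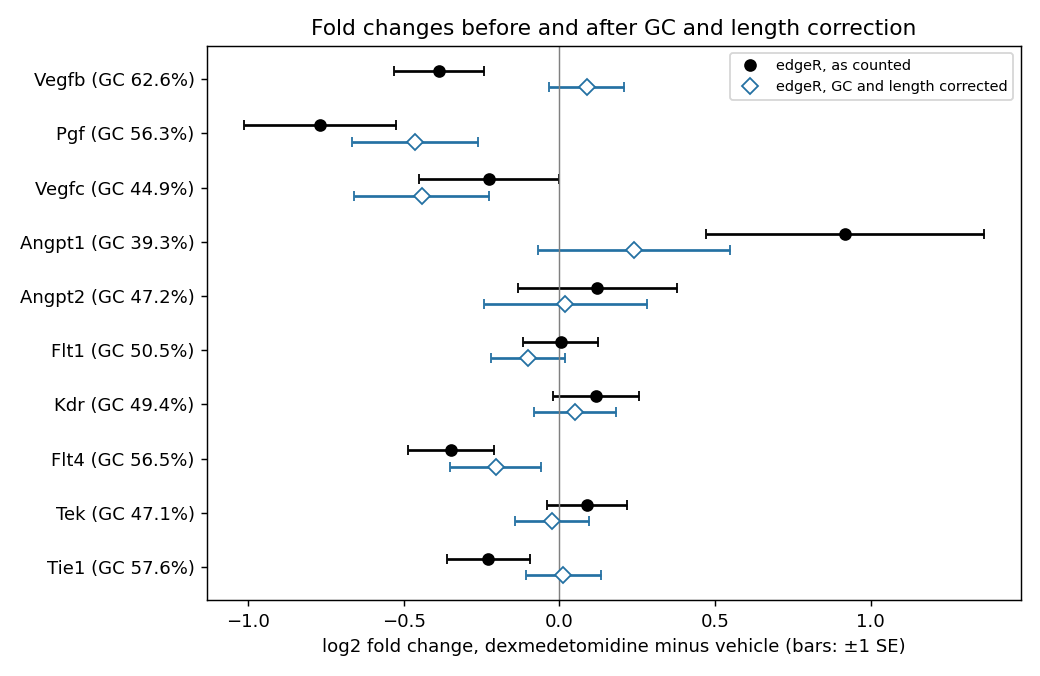
Log2 fold change with 1 SE for each gene as counted (filled circles) and after correction of each library for GC content and length (open diamonds). Vegfb goes from -0.39 to 0.09 and Angpt1 from 0.92 to 0.24, while Pgf stays below 0 at -0.46 and Vegfc at -0.44.

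Other genes of the pathway, co-receptors, modulators and signalling proteins, went in both directions. Of 23 tested, 13 were higher and 10 lower (median log2 fold change 0.02), none passed an adjusted p of 0.05 in edgeR (5 in DESeq2 and 7 in limma-voom, which called 8.63% and 14% of all genes), and at an unadjusted p under 0.05 there were 3 higher and 4 lower (12.5% and 9.03% of all genes). Those with the smallest p were Pik3ca, the catalytic subunit of a PI3 kinase, at 0.77 (SE 0.20), the Src-family kinases Src at -0.82 (SE 0.22) and Yes1 at 1.34 (SE 0.40), and the VEGF co-receptor Nrp1 at 0.62 (SE 0.19), with edgeR adjusted p-values of 0.109, 0.109, 0.126 and 0.119. Group means of Nrp1 were 111 ± 29.2 CPM with vehicle and 172 ± 10.1 CPM with dexmedetomidine (SD, n = 3 each). With the GC and length correction these 4 stood at 0.15, -0.51, 0.85 and 0.12 in the same order, and without vehicle replicate 2 at 0.57, -0.82, 0.99 and 0.42. Vegfd, the other ligand of FLT4, measured 1.40 ± 0.169 and 1.92 ± 0.0158 CPM (log2 fold change 0.45, edgeR adjusted p = 0.406, corrected 0.29, without vehicle replicate 2 0.48), and Ptprb, the endothelial phosphatase that restrains TEK, measured 285 ± 34.8 and 289 ± 47.0 CPM (0.02, edgeR adjusted p = 0.950, corrected -0.20, without vehicle replicate 2 -0.070); both were named for their role after the values were seen.

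Genes of vessel sprouting and of arterial and venous identity also split, with 9 of 22 higher and 13 lower (median log2 fold change -0.06). None passed an adjusted p of 0.05 in edgeR (3 in DESeq2 and 4 in limma-voom, beside the same 8.63% and 14%), and 2 in each direction had an unadjusted p under 0.05, near the 12.5% and 9.03% of all genes. The venous receptor gene Ephb4 was at -0.43 (SE 0.12) and Notch1, which restrains sprouting, at -0.40 (SE 0.14). Calcrl, the receptor of adrenomedullin, was at 1.18 (SE 0.33) and Bmpr2, a BMP receptor, at 0.80 (SE 0.26). The edgeR adjusted p-values of these 4 were 0.112, 0.144, 0.114 and 0.137, and with the correction they stood at -0.15, -0.29, 0.34 and 0.26, and without vehicle replicate 2 at -0.48, -0.40, 0.86 and 0.56.

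In bulk tissue, fewer cells of a type and less RNA per cell cannot be told apart, so marker lists are given beside the receptors. Endothelial markers were all detected, and 13 of 17 were lower (median log2 fold change -0.15). At an unadjusted p under 0.05 there were 0 (21.5% of all genes). With the correction 2 were lower and 0 higher at that p, beside 7.65% and 4.94% of all genes. Summed levels overlapped, at 3023 to 3121 CPM after vehicle and 2560 to 3044 CPM after dexmedetomidine. The mean log2 CPM of the list was separate by a narrow margin, at 6.310 to 6.534 after vehicle and 6.245 to 6.308 after dexmedetomidine. Pecam1 was at 0.05 and Cdh5 at -0.20, and the 4 with the smallest p were Emcn at 0.27, Gpihbp1 at -0.31, Cldn5 at -0.74 and Esam at -0.21 (edgeR adjusted p = 0.234 to 0.306). These 4 stood at -0.38, -0.065, -0.30 and -0.087 with the correction and at 0.26, -0.38, -0.43 and -0.20 without vehicle replicate 2, and Pecam1 and Cdh5 at 0.068 and -0.13 and at 0.010 and -0.17. The log2 fold changes of Flt1, Kdr, Tek and Tie1 lay between -0.23 and 0.12. The part of endothelial content in these values was not tested.

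Lymphatic markers, beside Flt4 and Vegfc, summed to 84.9 to 98.4 CPM after vehicle and 82.6 to 115 CPM after dexmedetomidine. Of these, 4 of 7 were lower and 0 had an unadjusted p under 0.05 (21.5% of all genes). With the correction 5 of 7 were lower, and 1 was lower and 0 higher at that p, beside 7.65% and 4.94% of all genes. Pericyte and smooth muscle markers, beside Angpt1, were lower for 7 of 11, with sums of 1410 to 1553 CPM after vehicle and 1759 to 2009 CPM after dexmedetomidine. Their mean log2 CPM overlapped, at 6.007 to 6.139 after vehicle and 5.852 to 6.138 after dexmedetomidine. Of these markers, Rgs5, with means of 662 and 1045 CPM (log2 fold change 0.66, corrected 0.089), and Abcc9, with 318 and 403 CPM (0.34, corrected 0.11), carried the higher sum. Rgs5 and Abcc9 were named after their values were seen, and which cells their reads came from was not tested. Cspg4 (-0.54, corrected -0.31) and Notch3 (-0.32, corrected -0.081), the others of the 4 with the smallest p in that list, were lower. The defining marker Pdgfrb was at -0.15, and so was the median of the list. At an unadjusted p under 0.05, 2 of the 11 were higher and 2 lower, beside 12.5% and 9.03% of all genes. Fibroblast markers were higher for 6 of 10 and summed to 2636 to 2833 and 2648 to 2791 CPM. Their mean log2 CPM did not overlap, at 6.388 to 6.562 after vehicle and 6.625 to 6.718 after dexmedetomidine. At an unadjusted p under 0.05, 4 of the fibroblast markers were higher and 1 lower, beside 12.5% and 9.03% of all genes. With the correction 2 were higher and 1 lower, beside 4.94% and 7.65%. Cardiomyocyte markers, beside Vegfb, were lower for 12 of 15 (median log2 fold change -0.38, 8 lower and 1 higher at an unadjusted p under 0.05, beside 9.03% and 12.5% of all genes), with sums of 72260 to 87275 CPM and 64079 to 69505 CPM. With the correction their median was -0.25, with 3 lower and 0 higher at that p (7.65% and 4.94% of all genes). Macrophage and monocyte markers were lower for 6 of 10 and summed to 362 to 388 and 316 to 427 CPM. At an unadjusted p under 0.05, 0 of these 10 were higher and 1 lower, beside 12.5% and 9.03% of all genes. Neutrophil markers were higher for 7 of 7, with 66.5 to 127 and 50.2 to 205 CPM. Of these 7, 0 had an unadjusted p under 0.05 and 0 had separate groups (21.5% and 27.6% of all genes). Dexmedetomidine replicate 1 had the lowest mean log2 CPM of the neutrophil list, at 1.96. Immediate early genes were lower for 15 of 15, with a median log2 fold change of -0.96. At an unadjusted p under 0.05, 8 were lower and 0 higher, beside 9.03% and 12.5% of all genes. With the correction 15 of 15 were lower (median -0.71). At that p, 4 were then lower and 0 higher, beside 7.65% and 4.94% of all genes. Fos among them went from -2.46 to 0.16 without vehicle replicate 2. The 4 with the smallest p stayed below 0 without that library: Dusp1 at -0.37, Egr3 at -0.91, Junb at -0.62 and Jund at -0.68. No marker in any list passed an adjusted p of 0.05 in edgeR, and the part of these cell types in the levels of the 10 genes was not tested.

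The genes whose log2 CPM over the 6 libraries was most like that of Kdr were Snora75 (Pearson r = 0.995), Cstf1 (0.995) and Smap1 (0.984). For Tek they were Tshz1 (0.995), Zfp956 (0.993) and Trmo (0.987), and for Angpt2 they were Paqr8 (0.985), Gm13991 (0.974) and Neurl1a (0.974). Snora75, Gm13991 and Zfp956 averaged 0.221, 0.219 and 1.06 CPM, so few counts lie behind their likeness. With 6 libraries and 14738 genes such values are a description of these libraries.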

How the data were processed

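Polyadenylated RNA from 1 µg of RNA per sample was sequenced, per the labels' protocols. The authors deposited raw counts per Ensembl gene for 6 libraries, and gene lengths. The submitters' processing notes name mm9, HTSeq and Trim Galore; for versions, aligner, annotation and strand setting nothing was found (not given in the sources used here). The 5 summary rows were removed first: alignments at several places took 28.0% to 39.5% of the table, reads outside genes 2.33% to 3.63%, ambiguous reads 1.83% to 2.37%, and the others 0.

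Symbols (32897 of 37620 genes) and GC content (97.2% of tested genes) came from GENCODE M21 (GRCm38), promoters from RefSeq (8 of 10 genes matched). Counts were tested with edgeR 4.0.16 in R 4.3.3 (filterByExpr, TMM, robust quasi-likelihood fit, Benjamini-Hochberg over 14738 genes, common biological coefficient of variation 22.8%). CPM uses TMM-scaled library sizes; log2 CPM has a prior count of 2. The GC and length correction removed from each library a spline (5 degrees of freedom each) of log2 CPM on both. Every pair of libraries differed by more than sampling noise (chi-square per degree of freedom at least 31.0).

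The members and gene lists were chosen with earlier results of these data known. Named besides the members are the 4 genes of smallest p in the pathway, sprouting, endothelial, pericyte and immediate early lists. Also named are the defining markers Pecam1, Cdh5 and Pdgfrb, Fos, Vegfd and Ptprb, and the 3 genes most correlated with each of Kdr, Tek and Angpt2. Single genes of the other lists are not given. Alternatives were DESeq2 1.42.0 and its size factors, limma-voom (limma 3.58.1), other filters, nuclear genes only, the correction, the replicate block and leaving out each library. The fits were tested on simulated data, where DESeq2 made a larger share of false calls than edgeR or limma-voom. The simulated counts held no trend with GC content and no outlying library. They therefore do not give the share of false calls in the measured data.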

Additional observations from a re-analysis of the deposited data

How the results depend on the processing

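Of the 10 genes, none passed an adjusted p of 0.05 in edgeR with DESeq2 size factors, no filter, a mean of at least 5 CPM, nuclear genes only or the GC and length correction. DESeq2 called 1 (Pgf), limma-voom 2 (Pgf and Vegfb), and fits without 1 library 0 to 2, with 2 (Pgf and Angpt1) without vehicle replicate 3. At an unadjusted p under 0.05, limma-voom had 5 (31.9% of all genes), fits without 1 library 1 to 4 (11.9% to 26.9%), the correction 1 in edgeR (12.6%) and in DESeq2 (13.4%), and the correction without vehicle replicate 2, a setting chosen after seeing the data, 0 (7.41%). Groups did not overlap for 1 with the correction (17.5% of all genes) and for 3 to 5 without 1 library (32.4% to 45.8%), near the background. Pairing of the samples by replicate number was not shown (correlations of deviations -0.055, 0.036 and 0.15, and not every sample correlated best with its own number). With 3 libraries a group, such a check cannot exclude pairing. With the replicate block 2 genes passed, Pgf at -0.73 and Angpt1 at 0.97 (4.32% of all genes passed), and with the replicate block and the correction 0 passed (1.03%) and 1 had an unadjusted p under 0.05 (13.8%).

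The following changed sign, and the cause was not tested. With the correction in edgeR, DESeq2 and with the block, log2 fold changes were 0.087, 0.087 and 0.089 for Vegfb, 0.013, 0.013 and 0.012 for Tie1, -0.10 in each for Flt1, -0.024, -0.024 and -0.020 for Tek, -0.20 in each for Ptprb and -0.38, -0.38 and -0.36 for Emcn, and the Tie1 to Tek difference in edgeR was 0.032. With the correction and without vehicle replicate 2, Vegfb was at 0.11, Flt1 at -0.075, Kdr at -0.034, Tek at -0.10, Ptprb at -0.22, Emcn at -0.23 and Fos at 0.21. In that setting Pgf, Flt4, Angpt1 and Vegfc kept their sign, at -0.23, -0.057, 0.057 and -0.37 (edgeR adjusted p = 0.829, 0.974, 0.988 and 0.797). Flt1 was at -0.0041 with DESeq2 size factors and in DESeq2, -0.00059 with no filter, -0.00047 with the block and -0.014 over nuclear genes. In limma-voom, Ptprb was at -0.0035 and Pecam1 at -0.022. Leaving out 1 library moved Flt1 between -0.044 and 0.081, Angpt2 between -0.11 and 0.32, Tek between -0.018 and 0.15, Ptprb between -0.070 and 0.15 and Fos between -2.97 and 0.16. It moved the log2 difference of Angpt2 to Angpt1 between -1.54 and -0.26, of Flt1 to Kdr between -0.21 and -0.04 and of Tie1 to Tek between -0.48 and -0.21. Vehicle replicate 2 is the library whose absence gave the positive Fos value.

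Of the 23 other pathway genes, 5 passed in DESeq2, 7 in limma-voom, 8 without vehicle replicate 3, 2 with the replicate block and 1 with no filter, and of the 22 sprouting genes 3, 4, 3, 1 and 0, where these fits called 8.63%, 14%, 8.31%, 4.32% and 1.88% of all genes. With 3 libraries a group, a miss of the threshold does not show that a level was equal.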
